A study of Mus musculus with 3 samples.

Results

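The transcripts described here are those of 10 genes that cardiomyocytes (CMs) use for contraction and oxygen storage, followed in droplet libraries of the heart cells that are not CMs. They were chosen by name: Tnnt2, Tnni3, Tnnc1 and Actc1 of the thin filament, Myh6, Myh7, Myl2 and Myl3 of the thick filament, Ttn of the elastic filament, and Mb, whose protein myoglobin holds oxygen in the cytoplasm. They are 10 of the 27998 genes in each count matrix. Cells came from ventricles of C57BL/6J JCL mice, with the atria removed, in 3 phases of pressure overload by transverse aortic constriction (TAC): healthy hearts (0 weeks), adaptive hypertrophy (2 weeks after TAC) and heart failure (12 weeks after TAC). TAC was done on male mice at 8 weeks of age. The age of the healthy mice and the number of mice behind each library are not given in the sources used here. Hearts were digested with collagenase, filtered, treated to lyse red blood cells and layered on Percoll. Each phase is 1 library, phase and library cannot be told apart, and no test between phases was possible. All intervals are exact 95% intervals of counting error, and they are too narrow where the molecules of a cell come together, as they did in the ECs.

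A cardiac muscle fibre contracts when myosin heads on the thick filament pull on actin in the thin filament. Calcium starts the pull by binding troponin C (Tnnc1), which relieves the inhibition by troponin I (Tnni3). Troponin T (Tnnt2) anchors the complex on tropomyosin of the thin filament. Titin (Ttn) runs from the Z disc to the middle of the sarcomere as a spring, and the regulatory and essential light chains (Myl2, Myl3) sit on the myosin neck. CMs make these transcripts in very large amounts, while endothelial cells (ECs), fibroblasts (FBs), mural cells and blood cells (BCs) are not known to build sarcomeres. Capillaries run between CMs along their length, whereas larger vessels lie in connective tissue. In droplet libraries the RNA of a cell type can be counted in droplets of other cells, as free molecules, as fragments or in a droplet that took up 2 cells, and which of these applied here was not tested.

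The members lie apart in the genome, except for the myosin heavy chain genes, which are neighbours. In the GENCODE annotation of GRCm38 the thick filament genes are Myh6 (ENSMUSG00000040752) at chr14:54941921-54966927 on the minus strand, Myh7 (ENSMUSG00000053093) at chr14:54970684-54994626 on the minus strand, Myl2 (ENSMUSG00000013936) at chr5:122100951-122113472 on the plus strand and Myl3 (ENSMUSG00000059741) at chr9:110741861-110769798 on the plus strand. The thin filament genes are Tnnt2 (ENSMUSG00000026414) at chr1:135836354-135852260 on the plus strand, Tnni3 (ENSMUSG00000035458) at chr7:4518305-4524229 on the minus strand, Tnnc1 (ENSMUSG00000091898) at chr14:31208312-31211729 on the plus strand and Actc1 (ENSMUSG00000068614) at chr2:114047282-114053548 on the minus strand. The other members are Ttn (ENSMUSG00000051747) at chr2:76703980-76982547 on the minus strand and Mb (ENSMUSG00000018893) at chr15:77015487-77050670 on the minus strand. The UMIs are counted at the 3′ ends of transcripts, so that values of different genes are set side by side only as UMIs or shares of UMIs, not as transcripts per length.

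The matrices held 3892, 2231 and 792 cells in which 200 or more genes were detected, with 12287823, 4465929 and 1712728 unique molecular identifiers (UMIs, 1 per captured transcript) at 0, 2 and 12 weeks. Cells were put in a class when at least 75% of the UMIs over 5 marker lists, and at least 4 UMIs, belonged to 1 list. This gave 1112, 1816 and 317 ECs, 1213, 97 and 191 FBs, 281, 48 and 30 mural cells (smooth muscle cells and pericytes) and 954, 191 and 185 BCs. In each class the 10 genes that stood highest above the other classes, among genes at no fewer than 100 counts per 1000000 UMIs (CPM) there, held markers of its own list and none of another list, and none of the 10 members. The classes were made from these lists, so the markers are no independent check of them. The highest share of members in any single cell was 1.41% of its UMIs at 0 weeks, 1.33% at 2 weeks and 1.40% at 12 weeks, each in an EC. The libraries shared 5, 1 and 3 cell barcodes in the 3 pairs of libraries.

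Most member UMIs lay in ECs. The members summed to 832 CPM (interval, 801 to 863) in healthy ECs, 605 CPM (579 to 632) in ECs at 2 weeks and 197 CPM (160.4 to 240.2) at 12 weeks. In FBs they summed to 50.5 CPM (43.8 to 58.0), 53.3 CPM (29.2 to 89.5) and 22.4 CPM (12.2 to 37.5). In BCs they summed to 54.0 CPM (45.7 to 63.4), 31.9 CPM (17.0 to 54.6) and 35.6 CPM (18.4 to 62.2). The intervals of FBs and BCs overlapped in every phase, and those of ECs lay above both. Mural cells had 160.2 CPM (134.7 to 189), 129 CPM (79.0 to 199.7) and 472 CPM (340.2 to 638), most of it Tnnt2, so that the EC level was 5.19 times (4.38 to 6.20), 4.68 times (3.02 to 7.68) and 0.42 times (0.29 to 0.61) the mural level, and at 12 weeks mural cells stood above ECs.

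The level in ECs was 16.5 times that in FBs at 0 weeks (14.3 to 19.1), 11.3 times at 2 weeks (6.75 to 20.8) and 8.82 times at 12 weeks (5.02 to 16.7). ECs were 28.6% of the healthy cells and 26.8% of their UMIs, yet they held 77.5% of the 3531 member UMIs (76.1 to 78.9). At 2 weeks they were 81.4% of the cells and held 96.2% of 2160 member UMIs (95.3 to 97.0), and at 12 weeks they were 40.0% of the cells and held 52.7% of 188 (45.3 to 59.97). Cells left without a class, which mix markers of several lists or have few of them, had member levels of 219.5 CPM, 175 CPM and 140.5 CPM.

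**Figure D1:**
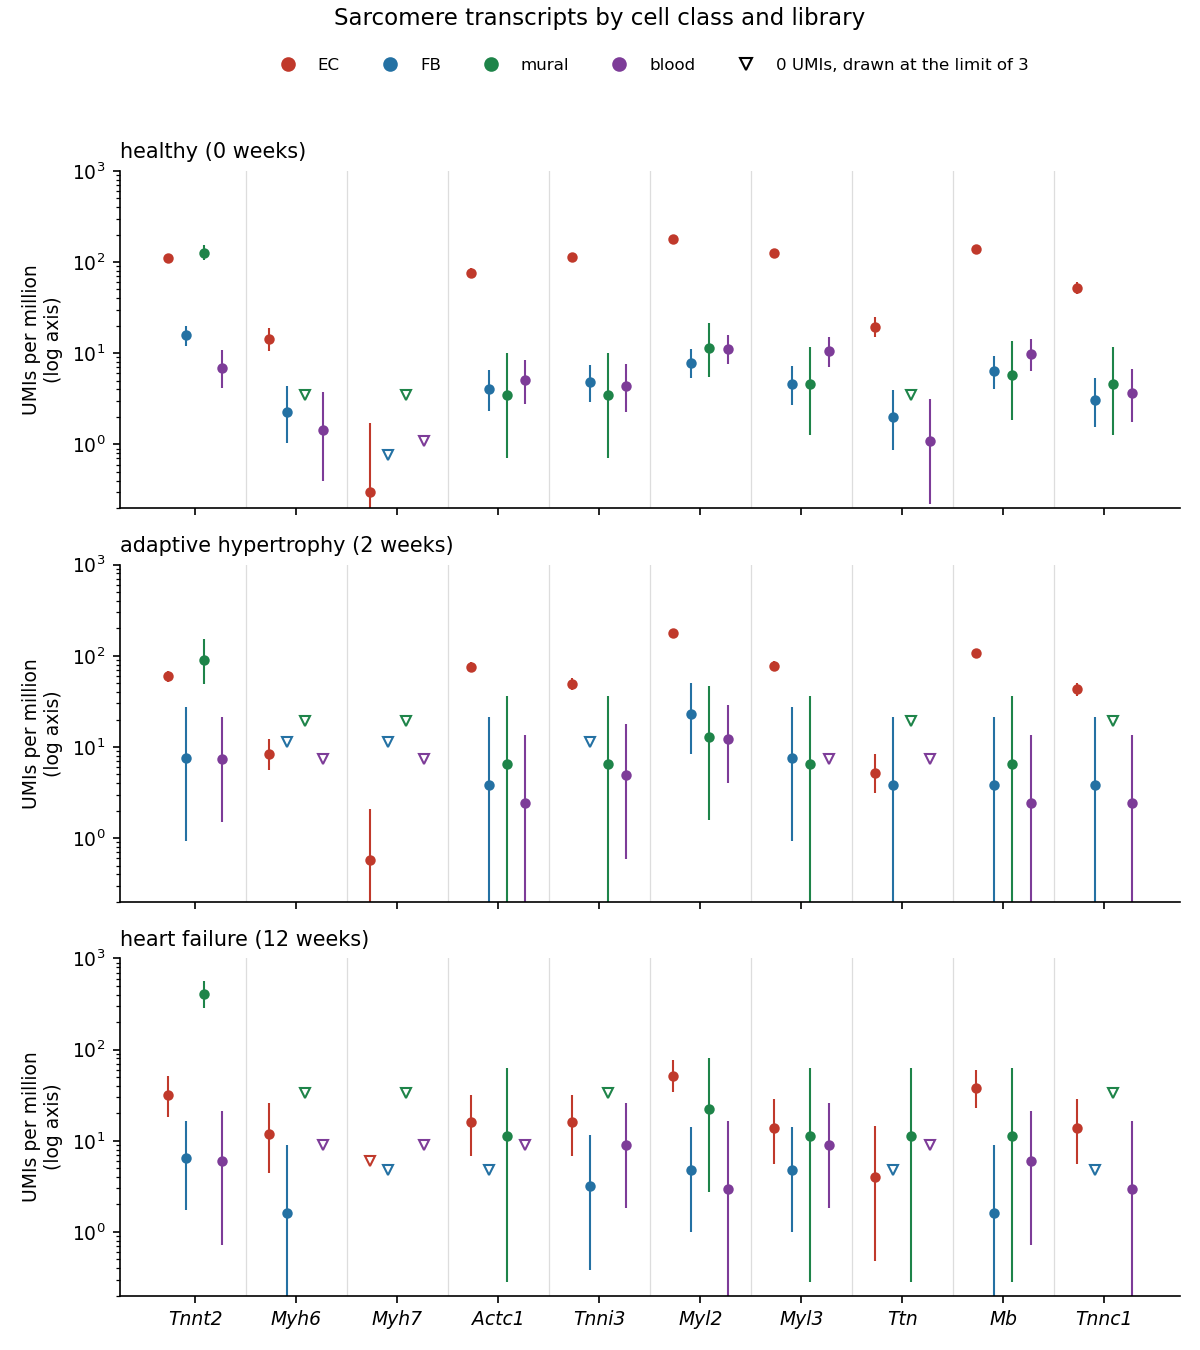
Level of each member (x axis) in UMIs per 1000000 on a log axis, in ECs, FBs, mural cells and BCs, with 1 panel per library; bars are exact 95% intervals of counting error, cut at the lower edge of the axis, and an open triangle is a gene with no UMI, drawn at the level that 3 UMIs would give. In the healthy panel 8 members are highest in ECs, Myh7 has 1 UMI in all, and Tnnt2 is at 127 CPM in mural cells and 110.1 CPM in ECs, and at 12 weeks Tnnt2 of mural cells stands alone at 405 CPM.

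Among the thick filament genes, both light chains were well above FBs and BCs in healthy ECs. Myl2, the regulatory light chain of ventricular myosin, was at 181 CPM in healthy ECs, 178 CPM at 2 weeks and 51.8 CPM at 12 weeks, against 7.83 CPM, 22.9 CPM and 4.79 CPM in FBs. Its level in healthy ECs was 23.1 times that in FBs (16.1 to 34.3) and 16.1 times that in BCs (11.2 to 23.9). Myl3, the essential light chain, was at 127 CPM, 76.9 CPM and 14.0 CPM in ECs, and in healthy cells 27.9 times the FB level (17.5 to 47.6). Myh6, the adult motor of the mouse heart, had 47 UMIs in healthy ECs, 29 at 2 weeks and 6 at 12 weeks, and its healthy EC level was 6.29 times that of FBs (3.05 to 14.6). Myh7, the fetal and stress-induced motor of the mouse ventricle, had 1, 2 and 0 UMIs in all cells of the 3 libraries, too few for any comparison.

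The thin filament genes were also higher in ECs, with the smallest gap for Tnnt2. Tnni3, the inhibitory subunit of troponin, was at 115 CPM in healthy ECs, 49.5 CPM at 2 weeks and 15.9 CPM at 12 weeks, and was 23.9 times the FB level in the healthy library (15.1 to 40.1). Actc1, the cardiac actin, was at 75.7 CPM, 75.1 CPM and 15.9 CPM in ECs, and 18.7 times the healthy FB level (11.3 to 33.3). Tnnc1, the calcium sensor, was at 51.7 CPM, 42.8 CPM and 14.0 CPM, and 17.0 times the healthy FB level (9.51 to 33.7). Tnnt2, which anchors troponin on tropomyosin, was at 110.1 CPM, 59.98 CPM and 31.9 CPM in ECs, and its gap to FBs was smaller, 7.03 times (5.36 to 9.36). Mb was at 138 CPM, 109 CPM and 37.9 CPM in ECs and 21.8 times the healthy FB level (14.6 to 34.1), and Ttn was at 19.5 CPM, 5.24 CPM and 3.99 CPM and 9.63 times (4.605 to 23.3).

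Of the members with at least 20 UMIs over both classes, 9 of 9 were at least 2-fold higher in ECs than in FBs at 0 weeks, 8 of 8 at 2 weeks and 3 of 3 at 12 weeks. Over all genes with that many UMIs, 15.8% were at least 2-fold higher in healthy ECs, 24.0% at 2 weeks and 17.6% at 12 weeks. The median log2 ratio of EC to FB, with 1 CPM added, was 3.93, 3.21 and 3.19 for these members, and 0.01, 0.15 and 0.11 for all such genes. The members were proposed because they stood high in ECs, so that these counts describe the choice and are no support for it.

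Within the ECs, the level differed between kinds of vessel. Capillary ECs, marked by Car4, Aplnr and Rgcc, had a summed member level of 999.9 CPM in healthy hearts (959.7 to 1041), 652 CPM at 2 weeks (619.5 to 686) and 244 CPM at 12 weeks (186 to 316). Arterial ECs, marked by Gja4, Gja5, Hey1, Sema3g and Fbln5, had 139 CPM (86.8 to 209.8) and 217 CPM (167 to 278) at 0 and 2 weeks. They had no member UMI in 28 cells at 12 weeks, where the exact interval reaches 68.35 CPM and the limit of 3 counts is 55.6 CPM. Capillary ECs were thus 7.22 times arterial ECs in healthy hearts (4.76 to 11.5) and 3.01 times at 2 weeks (2.34 to 3.93).

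The levels of the other named kinds of EC with at least 5 cells lay below those of capillary ECs, though not all of their intervals did. ECs that took no kind were 234, 536 and 115 cells. They had 603 CPM (541 to 671), 668 CPM (610.5 to 730) and 246 CPM (171 to 344). At 2 and 12 weeks they were thus level with capillary ECs, at 652 and 244 CPM. Venous ECs had 291 CPM (192 to 423) and 311 CPM (220 to 428) at 0 and 2 weeks, which was below capillary ECs by 3.44 times (2.36 to 5.22) and 2.09 times (1.52 to 2.97). At 12 weeks they had 2 UMIs in 10 cells (107 CPM, 13.0 to 386.5), an interval that holds the capillary level. Endocardial ECs, which line the chambers, had 5 UMIs in 24 healthy cells (80.0 CPM, 25.98 to 187) and 3 UMIs in 19 cells at 12 weeks. Lymphatic ECs had 17 UMIs in 26 healthy cells (194 CPM, 113 to 309.8). At 2 weeks they had 4 UMIs in 10 cells (284 CPM, 77.3 to 726), an interval that holds the capillary level. Depth was not the same in these groups, with a median of 2328 UMIs in capillary and 1856 in arterial healthy ECs, and CPM takes the depth of the group into account.

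**Figure D2:**
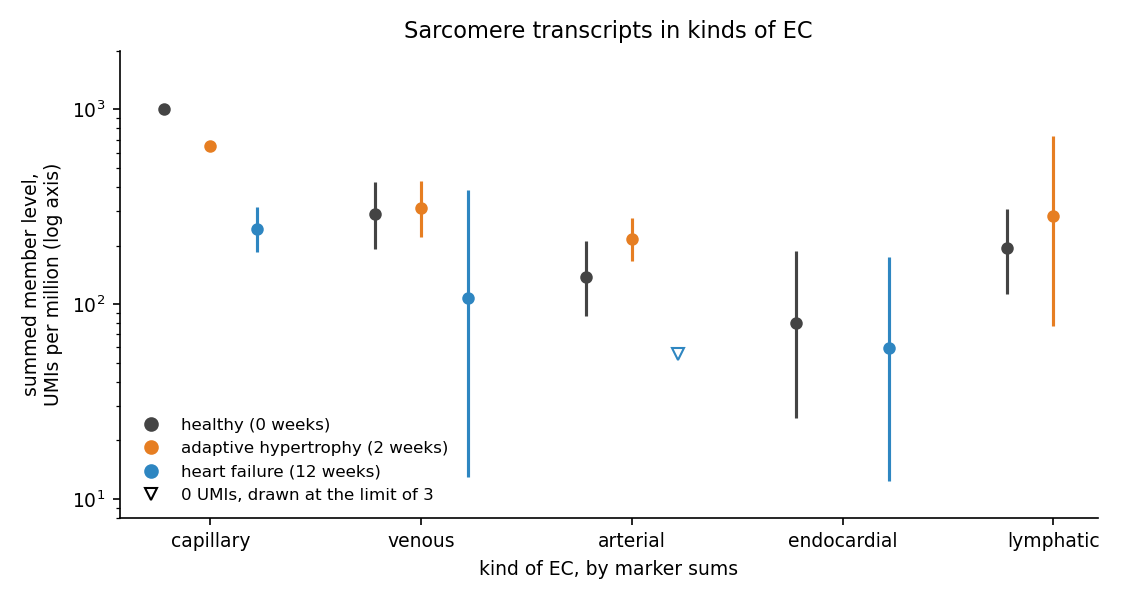
Summed level of the 10 members (y axis, UMIs per 1000000, log axis) in 5 kinds of EC named from marker sums, by library; bars are exact 95% intervals of counting error, the open triangle is a group with no member UMI drawn at the level of 3 UMIs, and groups of fewer than 5 cells are left out. In the healthy library capillary ECs at 999.9 CPM lie above the intervals of all other kinds drawn. ECs that took no kind are not drawn.

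The next question was how the member UMIs lay over single cells. At least 1 member UMI was found in 58.4% of healthy ECs (55.4 to 61.3), 46.6% at 2 weeks (44.3 to 48.9) and 18.3% at 12 weeks (14.2 to 23.0). The same share was 12.9% in healthy FBs and 11.8% in healthy BCs, although these cells were deeper, with medians of 2945 and 2616 UMIs against 2205 in ECs. In mural cells it was 28.5% at 0 weeks, 20.8% at 2 weeks and 36.7% at 12 weeks, at medians of 2452, 2610 and 2158 UMIs. After every cell was thinned to 1000 UMIs the shares were 40.7%, 33.9% and 12.8% in ECs 5.77%, 5.63% and 1.22% in FBs, and 16.0%, 11.1% and 27.3% in mural cells, the last from 22 cells. No healthy cell was below 1000 UMIs, and thinning left out 502 of the ECs at 2 weeks and 114 at 12 weeks.

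In ECs the members sat in fewer cells than depth alone would give. If the 2736 member UMIs of healthy ECs had fallen on cells in proportion to their depth, 929.9 cells would have had one, and 649 had, a ratio of 0.70. At 2 weeks 846 ECs had a member UMI where depth alone gives 1095 (0.77), and at 12 weeks 58 where it gives 80.0 (0.72). The variance of the member sum over its mean was 8.33, 3.59 and 2.77 in ECs in the 3 phases, against 2.38, 1.65 and 1.16 from depth alone. The UMIs were still far from being held by a handful of cells: the 1% of ECs with the most member UMIs held 13.8% of them at 0 weeks (12.5 to 15.1), 11.8% at 2 weeks (10.4 to 13.2) and 25.3% at 12 weeks (17.1 to 35.0), and the richest healthy EC held 69.

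Cells with many members were more frequent among ECs than independent draws by depth would give, and cells with few members less frequent. In healthy ECs at least 2 members were detected in 453 cells where such draws give 613 and at least 3 in 283 where they give 335. At least 5 of the 10 members were detected in 104 healthy ECs where independent draws by depth would give 72.2, in 45 ECs at 2 weeks where they would give 14.5, and in 2 ECs at 12 weeks where they would give 0.021. These counts were taken over all kinds of EC, whose member levels differed. Among capillary ECs alone, 93 healthy cells had at least 5 members where such draws give 81.85, a smaller excess. At 2 weeks 34 capillary ECs did where the draws give 13.6, and at 12 weeks 1 did where they give 0.0086. How much of the excess over all ECs came from the mix of kinds was not tested. Taking Myl2 as the anchor, 47.7% of the 331 healthy ECs with a Myl2 UMI also had Myl3 (42.2 to 53.3), against 12.8% of the 781 ECs without (10.5 to 15.3). Tnni3 was found in 41.7% of the former and 14.6% of the latter, Mb in 45.9% and 16.6%, and Ttn in 11.2% and 1.54%. The ECs with Myl2 were deeper, with a median of 2969 against 2019 UMIs, which by itself makes a second member more likely to be seen. These pairs were also taken over all kinds of EC. The members with at least 100 UMIs in healthy ECs were found in 0.78 (Myl2) to 0.85 (Tnnc1) times the cells that depth gives.

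Summed over the members, FBs and BCs were also less even than depth gives. A member UMI was found in 157 healthy FBs where depth gives 180.3 (0.87) and in 113 healthy BCs where depth gives 136 (0.83), with variance-to-mean ratios of 1.73 against 1.05 and 1.68 against 1.04. Gene by gene most members, with few UMIs each, were found in as many cells as depth gives. In healthy FBs, Myl2 had 31 UMIs in 31 cells, Mb 25 in 25, Tnni3 19 in 19 and Myl3 18 in 18, so that no FB held more than 1 UMI of any of these genes. For the 6 FB members other than Tnnt2 with at least 10 UMIs, only Actc1, with 16 UMIs in 14 cells, was found in fewer cells than depth gives. In healthy BCs the 7 members with at least 10 UMIs were found in 0.95 to 1.01 times the cells that depth gives, with at most 2 UMIs of a gene in a cell. With so few UMIs a gene of this level would rarely meet itself in a cell, so these single UMIs leave little room to see clumping.

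Over the members together, FBs and BCs had some cells that stood out. At least 3 members were found in 4 of 1213 healthy FBs where depth gives 0.91, and in 5 of 954 healthy BCs where depth gives 0.58. These BCs carried 105 to 350 UMIs of blood markers and 0 to 4 of EC markers. At 12 weeks 11 of the 12 member UMIs of BCs lay in 2 cells, and without them the BC level was 3.01 CPM in place of 35.6 CPM.

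Genes of other cell types gave a scale for the spread. The haemoglobin gene Hba-a1, a red blood cell transcript, had 119 UMIs in only 19 healthy ECs where depth gives 109.9 cells, with 72 in 1 cell, and a variance-to-mean ratio of 47.3. The BC gene Lyz2 had 306 UMIs in 258 healthy ECs where depth gives 252, and the FB gene Dcn had 666 UMIs in 459 ECs where depth gives 457, with variance-to-mean ratios of 1.104 and 2.13. The members of healthy ECs with at least 10 UMIs lay between 1.08 (Myh6) and 2.38 (Myl2). Other genes of BCs and FBs were less even in the same cells. Cd74 was found in 247 ECs where depth gives 296 (0.83) with a variance-to-mean ratio of 5.09, Col3a1 in 114 where it gives 130.0 (0.88) with a ratio of 1.74, and Gsn in 634 where it gives 704 (0.90) with a ratio of 27.2. The members thus lay below haemoglobin, Gsn and Cd74 in this ratio, and within or near the range from Lyz2 to Dcn, with Myl2 and Myl3 above it. This ratio also rises with the UMIs of a gene, and depth alone gives 1.15 for Lyz2 and 1.34 for Dcn. By cells found over cells that depth gives, the order differed. Members with at least 100 UMIs, at 0.78 to 0.85, lay below Lyz2 (1.02) and Dcn (1.005) and beside Cd74.

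**Figure D3:**
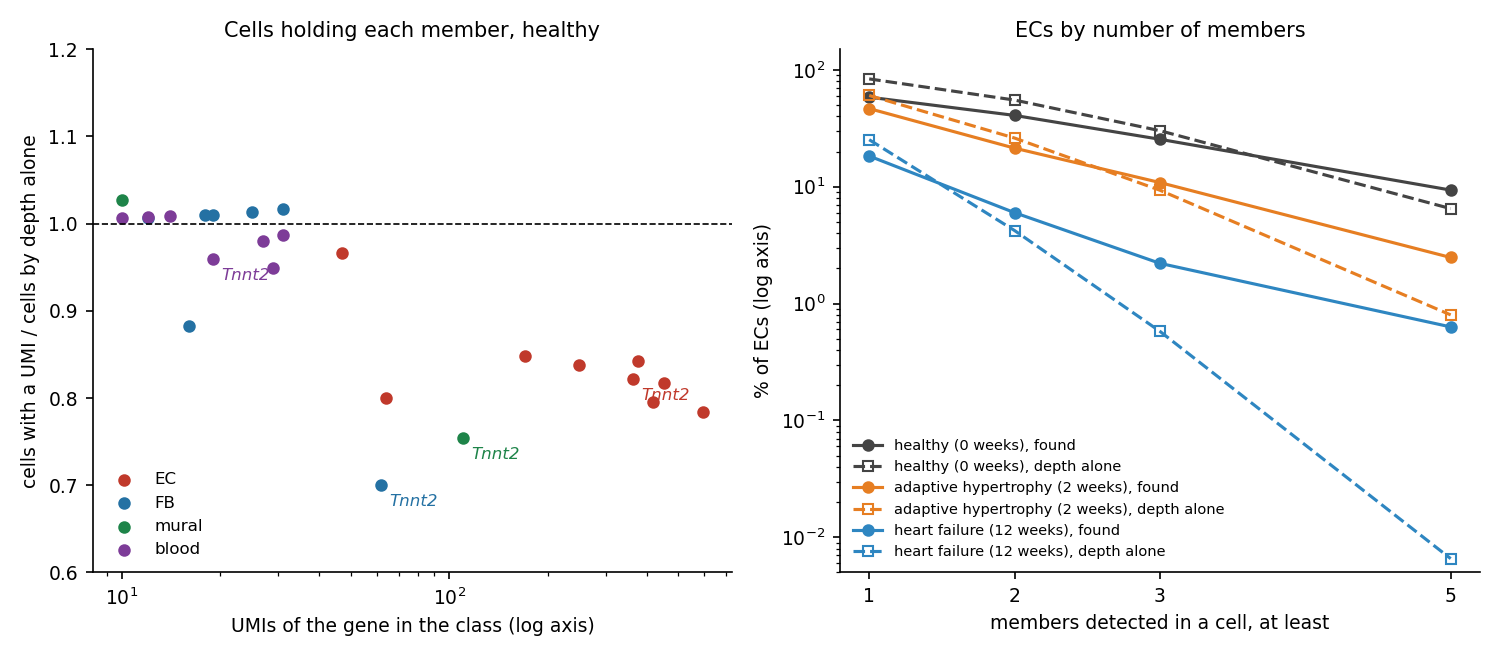
Left: for each member with at least 10 UMIs in a class of the healthy library, the number of cells with a UMI over the number that depth alone gives (y axis) against the UMIs of the gene in the class (x axis, log axis). Right: share of ECs with at least 1, 2, 3 or 5 members, as found (filled) and from independent draws by depth (open, dashed), by library, on a log axis. On the left the EC points for genes with over 100 UMIs lie at 0.78 to 0.85, while most FB and BC points lie near 1, with Tnnt2 of FBs at 0.70. On the right, the found line is below the depth line at 1 member and above it at 5 members in all 3 libraries.

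The ECs with at least 3 members were 283 cells at 0 weeks (25.4% of ECs), 197 at 2 weeks (10.8%) and 7 at 12 weeks (2.21%), and they held 77.3%, 53.2% and 35.4% of the EC member UMIs. They were deeper than ECs with no member, with medians of 3308 against 1880 UMIs at 0 weeks, 2333 against 1280.5 at 2 weeks and 2457 against 1217 at 12 weeks. In the healthy library 83.4% of them were capillary (78.5 to 87.5), against 50.8% of ECs with no member (46.1 to 55.4), and 2 against 58 cells were arterial. Of EC identity genes in the healthy library, Cdh5, the endothelial cadherin, was at 834 against 747 CPM, Fabp4, a fatty acid carrier of capillary ECs, at 19189 against 14266 CPM, and Pecam1, an adhesion molecule of EC junctions, at 616 against 855 CPM. The doublet caller Scrublet marked 2 of the 283 healthy cells and none at 2 and 12 weeks, but it marked only 38, 2 and 1 cells in all, so its calls cannot be read and the part of doublets was not tested. The mitochondrial share of UMIs was 2.85% against 2.46% at 0 weeks and 2.87% against 2.99% at 2 weeks. Even in these cells the members were a small part, with a median of 0.170% of the UMIs of a healthy cell.

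Other CM genes, from a list of 27 that holds none of the members, were higher in the same cells. Of those with at least 20 UMIs over both sets, 15 of 17 were at least 2-fold higher in healthy ECs with 3 or more members than in ECs with none, 15 of 17 at 2 weeks and 1 of 3 at 12 weeks. Over all genes with that many UMIs the share was 2.14%, 1.59% and 12.4%. Of the genes past 2-fold at 0 weeks, Pln, Tpm1, Des, Cryab and Pgam2 were also higher in healthy mural cells than in ECs. The count is thus not one of transcripts particular to CMs. Of the energy genes, 8 of 9 were past 2-fold at 0 weeks and 7 of 8 at 2 weeks. Fabp3, the fatty acid carrier of heart muscle, was at 169.7 against 12.3 CPM in healthy ECs (13.8 times, 7.87 to 26.3), and Ckm, the muscle creatine kinase, at 72.7 against 5.69 CPM (12.8 times, 5.65 to 35.7). Between 2000 and 4000 UMIs per cell, where depth is similar, Fabp3 was 22.5 times (9.27 to 71.3) and Ckm 16.2 times (5.12 to 82.5). Some other genes past 2-fold had intervals that held 1 in this window. Healthy Des was 1.91 times (0.70 to 5.48), healthy Tcap 3.13 times (0.87 to 13.9) and Cryab at 2 weeks 2.41 times (0.81 to 7.045). The counts of 15 of 17 were not repeated there.

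Of the calcium handling genes, Pln, the brake on the calcium pump, was 5.32 times higher (3.47 to 8.47), and of the Z disc genes Ankrd1, a stretch-responsive gene, 13.2 times (3.36 to 114) and Csrp3 7.67 times (3.85 to 17.4). The 2 that stayed under 2-fold in both libraries, Atp2a2 (1.46 times at 0 weeks) and Slc25a4 (1.62 times), carry calcium and ADP across membranes. The natriuretic peptides Nppa and Nppb did not reach 20 UMIs in these sets.

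The 10 genes outside the members whose level differed most between ECs with at least 3 members and ECs with none, over the mean of the 3 libraries, were Nudt8, Tnf, Tmem182, Rufy2, Cxcl9, Fam134c, Tpm1, Dhx29, Adm and 2810454H06Rik. Of these only Tpm1, the tropomyosin on which Tnnt2 sits, is in the list of CM genes, with a mean log2 ratio of 1.41. The ranking rests on the 7 such ECs at 12 weeks, where Nudt8, Tmem182, Rufy2, Dhx29 and 2810454H06Rik each had 3 UMIs. Over the 0 and 2 week libraries alone, a ranking added after the first was seen to hold 1 gene of the CM list, the 10 genes were Fabp3, Hba-a2, Acta1, Ckm, Hba-a1, Csrp3, Pgam2, Ptgds, Cox8b and Cox6a2. It admits a gene through its UMIs in the ECs where it is high, and Acta1 had 0 and Ptgds 1 UMIs in healthy ECs with no member, so it is a description only. Fabp3 led with a mean log2 ratio of 3.39. The haemoglobin genes Hba-a2 and Hba-a1 had mean log2 ratios of 3.32 and 3.02, with 51 and 78 UMIs in the 283 healthy ECs, but 48 and 72 of these lay in the single richest cell for each gene.

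Tnnt2 was the member that parted from the others. In healthy mural cells it was at 127 CPM (104 to 153) while the other 9 members together had 29 UMIs there, 33.4 CPM. It made up 79.1% of the member UMIs of mural cells (71.4 to 85.6), against 13.2% in ECs (11.98 to 14.6), 12.8% in BCs (7.86 to 19.2) and 31.0% in FBs (24.7 to 37.9). At 2 weeks it was 14 of 20 member UMIs in mural cells and at 12 weeks 36 of 42.

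Most mural cells with Tnnt2 held no other member. Of the 64 healthy mural cells with a Tnnt2 UMI, 15.6% had any other member (7.76 to 26.9), against 88.2% of the 238 ECs with Tnnt2 (83.4 to 92.0), 16.7% of 42 FBs and 44.4% of 18 BCs. The base rate differed too: any of the other 9 members was found in 9.25% of all healthy mural cells and 55.8% of all healthy ECs, which held 29 and 2374 of their UMIs. Mural cells with Myh11, the smooth muscle myosin, held 107 of the 110 mural Tnnt2 UMIs at 0 weeks, 14 of 14 at 2 weeks and 36 of 36 at 12 weeks. Cells with Myh11 were 250 of the 281 mural cells at 0 weeks, 47 of 48 at 2 weeks and 19 of 30 at 12 weeks, and were deeper, with a median of 2590 against 1672 UMIs at 0 weeks. Tnni3 and Tnnc1, the partners of Tnnt2 in troponin, had 3 and 4 UMIs in healthy mural cells, so that the ratio of EC to mural level was 33.2 for Tnni3 (11.3 to 161) and 11.2 for Tnnc1 (4.30 to 41.6) but 0.87 for Tnnt2 (0.70 to 1.08). Of the members with at least 20 UMIs over both classes, 8 of 9 were at least 2-fold higher in ECs than in mural cells at 0 weeks, 7 of 8 at 2 weeks and 2 of 3 at 12 weeks, where 23.0%, 31.8% and 33.9% of all genes were. At least 2-fold lower were 0, 0 and 1 (Tnnt2), where 13.5%, 13.3% and 10.9% of all genes were.

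The FB Tnnt2 was likewise uneven. Its 62 UMIs lay in 42 healthy FBs where depth gives 59.99, with 8 in 1 cell, and a variance-to-mean ratio of 2.85, while the other FB members with at least 10 UMIs lay between 0.97 and 1.24. Tnnt2 in healthy mural cells was in 64 cells where depth gives 84.9, with 15 UMIs in 1 cell.

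The other troponin subunits of striated muscle did not come with it. Tnnt1, the slow skeletal troponin T, had 9 UMIs in healthy mural cells, Tnnt3 0, Tnni1 2, Tnni2 0 and Tnnc2 1. The contractile genes of smooth muscle were high in the same class, with Acta2 at 9985 CPM and Myl9 at 5199.5 CPM. Many of the other CM genes were also higher in healthy mural cells than in ECs, with intervals that did not overlap for Atp2a2, Pln, Casq2, Tpm1, Des, Cryab, Myl4, Slc25a4 and Pgam2. Casq2, the calcium store of the sarcoplasmic reticulum, was at 317 against 3.34 CPM, Des, the muscle intermediate filament, at 600.5 against 24.3 CPM, Pln at 530.2 against 67.5 CPM and Tpm1 at 2829.7 against 414 CPM.

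**Figure D4:**
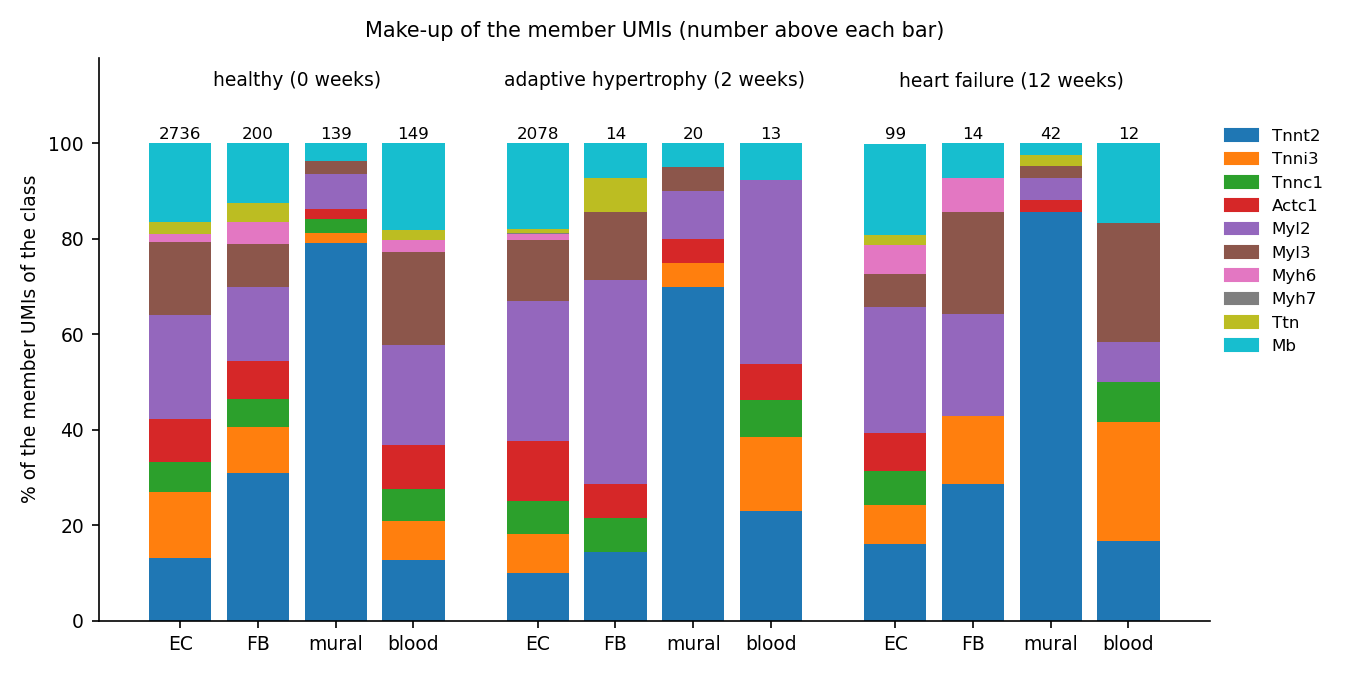
Share of the member UMIs of a class (y axis, %) that each member makes up, with the number of member UMIs above each bar, for ECs, FBs, mural cells and BCs of the 3 libraries. Tnnt2 is 70.0% to 85.7% of the bar in mural cells and 9.91% to 16.2% in ECs, and bars that rest on fewer than 50 UMIs are uncertain.

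The sequence before the start of Tnnt2 is shown beside that of Tnnc1, its troponin partner, because these 2 members of 1 protein complex parted between mural cells and ECs. The 250 bases are from RefSeq on GRCm38.p6, the build of the files, on the plus strand at chr1:135836084-135836333 for Tnnt2 and chr14:31208062-31208311 for Tnnc1. The RefSeq start lies 20 bases before the GENCODE start of the Tnnt2 gene, which runs from 135836354 to 135852260, and at the GENCODE start of Tnnc1, which runs from 31208312 to 31211729. Both strands were searched for the MCAT motif CATTCC, the GATA motif AGATAA, the CArG box and the MEF2 site. A TATA box was searched as TATAAA. Capitals mark the motifs found.
Tnnt2: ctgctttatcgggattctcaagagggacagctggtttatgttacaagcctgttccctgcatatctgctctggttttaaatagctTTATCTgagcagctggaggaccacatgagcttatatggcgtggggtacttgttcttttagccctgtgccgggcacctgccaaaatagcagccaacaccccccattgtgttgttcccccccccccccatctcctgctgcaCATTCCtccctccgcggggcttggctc
Tnnc1: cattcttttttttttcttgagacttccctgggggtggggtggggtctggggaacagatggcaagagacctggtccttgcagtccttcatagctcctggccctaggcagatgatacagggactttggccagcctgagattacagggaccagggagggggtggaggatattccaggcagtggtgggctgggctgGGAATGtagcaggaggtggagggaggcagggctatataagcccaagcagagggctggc
The Tnnt2 window holds CATTCC 27 to 22 bases before the start and AGATAA, read on the other strand, 166 to 161 bases before it. The Tnnc1 window holds CATTCC on the other strand 58 to 53 bases before the start. Of 32851 RefSeq windows of this length, 12.6% hold CATTCC, 9.99% AGATAA, 12.4% TATAAA, 1.47% a CArG box and 2.92% a MEF2 site. Neither window holds one of the last 3, and a match or its absence describes the letters only. Spellings of a TATA box other than TATAAA were not searched, so its absence was not shown.

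Across the phases the member level of ECs fell. The 2 week level was 0.73 times the healthy level (0.69 to 0.77) and the 12 week level 0.24 times (0.19 to 0.29). In capillary ECs alone the ratios were 0.65 (0.61 to 0.70) and 0.24 (0.19 to 0.32). The fall at 2 weeks was not seen in the other large groups of EC. ECs that took no kind had 603 CPM at 0 weeks and 668 CPM at 2 weeks. Arterial ECs had 138.5 and 217 CPM, and venous ECs 291 and 311.5 CPM. The FB level changed by 1.06 times at 2 weeks (0.57 to 1.81) and 0.44 times at 12 weeks (0.24 to 0.76), and the BC level by 0.59 times (0.31 to 1.04) and 0.66 times (0.33 to 1.19). The mural level was 0.81 times (0.48 to 1.29) at 2 weeks and 2.95 times (2.04 to 4.19) at 12 weeks. Differences between preparations and between phases cannot be told apart.

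At 2 weeks the members did not move as 1 block. Of 9 members with at least 20 UMIs, 2 were at least 2-fold lower in ECs, Tnni3 at 0.43 times (0.36 to 0.52) and Ttn at 0.27 times (0.15 to 0.46), where 5.89% of all genes were. Myl2, Actc1 and Tnnc1 were at 0.98 (0.88 to 1.10), 0.99 (0.83 to 1.19) and 0.83 (0.66 to 1.04) times the healthy level, with intervals that hold 1. At 12 weeks 8 of 9 were at least 2-fold lower, all but Myh6, where 8.59% of all genes were. None was at least 2-fold higher, where 4.24% of all genes were at 2 weeks and 9.15% at 12 weeks. Their median log2 ratio, with 1 CPM added, was -1.83 at 12 weeks and -0.69 at 2 weeks, and that of all genes 0.09 and 0.02.

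The make-up of the CM transcripts in ECs, taken as a ratio of sums over all ECs of a library, differed between 0 and 2 weeks. Per 100 member UMIs in ECs, Acta1, the skeletal actin that stressed hearts re-express, went from 0.804 to 5.92 UMIs (7.36 times, 4.65 to 12.2). Without the 1% of ECs with the most Acta1 UMIs in each library it was 15.6 times (7.26 to 40.1). That rule left out 12 of the 19 healthy ECs with Acta1, but 19 of the 102 at 2 weeks. It thus raises the ratio by itself and cannot show how firm the difference is. Nppa, the atrial natriuretic peptide and a stress gene of the ventricle, went from 0.073 to 1.49 (20.4 times, 5.19 to 176), that is from 2 UMIs to 31. Ankrd1 went from 1.57 to 3.75 (2.39 times, 1.63 to 3.55) and Tcap, a titin cap of the Z disc, from 1.68 to 3.90 (2.32 times, 1.59 to 3.41).

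Some genes went the other way. Ttn made up 2.34 UMIs per 100 at 0 weeks and 0.866 at 2 weeks (0.37 times, 0.21 to 0.63), Pln 8.11 and 4.14 (0.51 times, 0.39 to 0.66), and Tnni3 13.8 and 8.18 (0.59 times, 0.49 to 0.71). Tnnt2 was at 0.75 times (0.63 to 0.89), while Myl2 and Actc1 were at 1.35 times (1.21 to 1.52) and 1.36 times (1.14 to 1.63). The members are shares of the same sum, so that a fall of some raises the shares of others. In CPM, the EC levels of Myl2 and Actc1 at 2 weeks were 0.98 and 0.99 times the healthy level. The Acta1 and Nppa UMIs lay in many cells at 2 weeks, 123 in 102 ECs and 31 in 30 ECs. Of Nppa, 7 UMIs lay in ECs with at least 3 members and 8 in ECs with none. The level ratio was 2.325 (0.72 to 7.34), so that the Nppa UMIs were not shown to lie in the cells with the members. For Acta1 these sets held 56 and 24 UMIs (6.20 times, 3.78 to 10.5). At 12 weeks Acta1 had 1 UMI and Nppa 0 beside 99 member UMIs, too few for a comparison. Myh7, which stressed mouse ventricles also re-express, had 2 UMIs in ECs at 2 weeks.

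**Figure D5:**
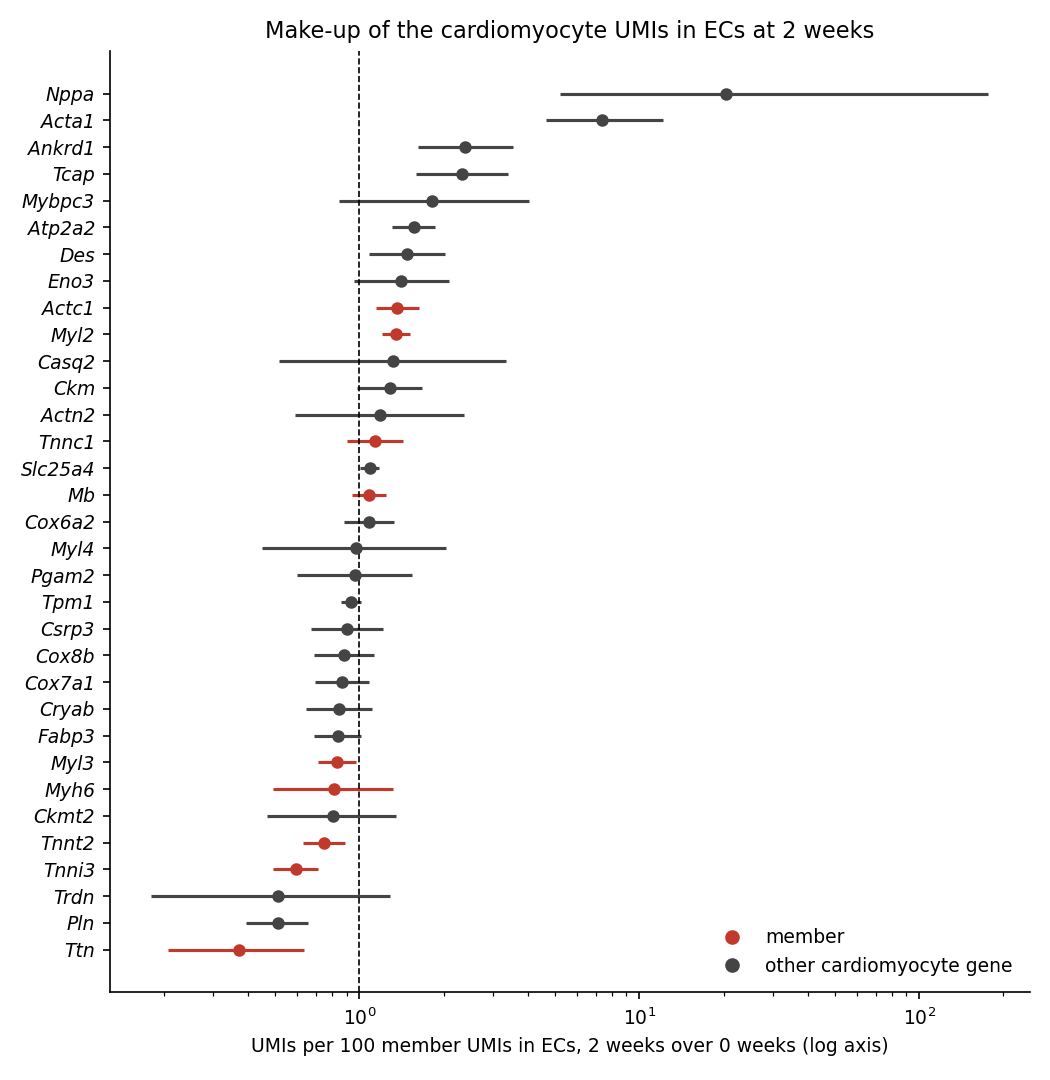
UMIs per 100 member UMIs in ECs at 2 weeks divided by the same at 0 weeks (x axis, log axis), for members (red) and other CM genes (grey) with at least 20 UMIs over both libraries; bars are exact 95% intervals of counting error and the dashed line marks no difference. Nppa at 20.4 and Acta1 at 7.36 lie farthest to the right, and Ttn at 0.37 farthest to the left.

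In mural cells Tnnt2 went from 127 CPM at 0 weeks to 90.5 CPM at 2 weeks and 405 CPM at 12 weeks. The 12 week level was 3.19 times the healthy level (2.13 to 4.69), while that in ECs was 0.29 times (0.16 to 0.48). It rested on 36 UMIs in 10 of 30 cells, 16 of them in 1 cell, and without the richest cell of each library the ratio was 2.21. Tnnt2 was the single member with at least 20 UMIs in this comparison, in which 8.68% of all genes were at least 2-fold higher and 20.6% at least 2-fold lower. The mitochondrial share of mural UMIs was 8.82%, 10.2% and 11.3% at 0, 2 and 12 weeks, and its part in the result was not tested. The level in mural cells was 12.7 times that in ECs at 12 weeks (6.86 to 24.5), against 1.15 times at 0 weeks (0.92 to 1.43) and 1.51 times at 2 weeks (0.81 to 2.59), and the last became 0.87 without the richest cell of each class.

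Depth within the ECs moved with the level in part. With ECs divided by depth into 4 sets of near equal cell number, the member level was 676, 874, 783 and 877 CPM from the shallowest to the deepest at 0 weeks. At 2 weeks it was 861, 636, 546 and 573 CPM, and at 12 weeks 449.7, 195, 195 and 149.7 CPM. The shallowest set was thus the lowest in the healthy library and the highest in the TAC libraries, where it spanned 578 to 953 and 421 to 829 UMIs per cell against 1155 to 1645 in the healthy library. The part of depth in the difference between phases was not tested.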

How the data were processed

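The authors made Chromium 3' libraries, counted UMIs with Cell Ranger 2.0.0 on mm10 (versions from the submitters' processing notes), and deposited raw counts per gene and cell (whole numbers, not normalized), 1 matrix of 27998 genes per phase; gene and barcode lists only named rows and columns. The members and all lists were chosen with earlier results of these data known. The cell filter was 200 detected genes, and 8, 8 and 10 cells fell below it. Depth ran from 1153 to 19219, 577 to 16610 and 421 to 19346 UMIs per cell. Classes came from sums of marker UMIs, and kinds of EC from the list with at least 60% of the subtype UMIs and at least 2 UMIs. Levels were class sums per 1000000 UMIs. Cells by depth alone assume that a gene's UMIs fall on cells in proportion to total UMIs. Intervals are exact (Poisson, Clopper-Pearson, or conditional binomial for ratios) and cover counting error only. A level of 0 was given the limit of 3 counts. A gene counted as tested from 20 UMIs (both groups summed) and as called from a 2-fold ratio. The genes named are the members, a list of 27 other CM genes with the highest of each role, smooth muscle and skeletal relatives, and the genes most like the members. The genes most like the members were those with the largest mean log2 ratio, with 1 CPM added, between ECs with at least 3 members and none, with at least 20 UMIs in the former and 3 per library. All 10 members matched a RefSeq promoter window, and of 15 windows 6 started within 100 bases of the GENCODE start. Python 3.11.15, numpy 2.4.6, scipy 1.17.1, pandas 2.3.3, matplotlib 3.10.9 and scanpy 1.11.5 (Scrublet) were used, and the measures were tested on simulated data. Scrublet marked 38, 2 and 1 cells (0.976%, 0.0897% and 0.126%), too few to have worked at 2 and 12 weeks, and doublets were left in. The alternatives tried are given in the closing section.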

Additional observations from a re-analysis of the deposited data

Results flagged for a closer look

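Tnnt2 went opposite ways in mural cells and ECs between 0 and 12 weeks, and was picked out for this. Its level at 12 weeks was 3.19 times the healthy level in mural cells (2.13 to 4.69) and 0.29 times in ECs (0.16 to 0.48). With 1 library per phase the difference was not tested.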

How the results depend on the processing

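Of 126 recomputed values, 108 stayed within the counting interval of the reported value, 18 moved out of it, and no ratio whose interval lay on 1 side of 1 turned direction. Leaving out the 38, 2 and 1 Scrublet calls, or the few cells with a shared barcode, could hardly move a value. All values of these settings stayed, so the count of 108 says little about how firm the results are. The mural to EC ratio of Tnnt2 at 2 weeks, whose interval held 1, went from 1.51 to 0.87 without the richest cell of each class. The EC to FB ratio ran from 11.4 to 20.7 at 0 weeks: it was 11.4 in cells thinned to 1000 UMIs, 12.5 as a mean over cells of each cell's member share, 20.7 over the 9 members other than Tnnt2 and 19.8 in capillary ECs, the last added after seeing the data. The share of EC member UMIs in the richest 1% of healthy ECs was 11.5% in thinned cells and 12.5% in capillary ECs. The share of member UMIs in ECs was 81.5% with a gate share of 60%, 72.6% with 90%, 80.0% without the richest 1% of each class and 81.5% without Tnnt2 at 0 weeks, 97.2% without cells over 10% mitochondrial UMIs and 97.0% without Tnnt2 at 2 weeks, and 68.1% in thinned cells and 68.6% without Tnnt2 at 12 weeks. The ratio of 2 to 0 weeks in ECs was 0.82 and that of 12 to 0 weeks 0.30 as means over cells, and the former 0.65 in capillary ECs. The Acta1 ratio was 15.6 without the 1% of ECs with the most Acta1 UMIs and 6.59 in capillary ECs. The former is raised by its own rule, which left out 12 of the 19 healthy ECs with Acta1. The causes were not tested. No paired analysis was possible because each phase has 1 library. At 12 weeks 99 EC, 14 FB and 12 BC member UMIs limit what can be said.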

Other observations

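Myl7, the light chain of atrial myosin, had 23 UMIs in FBs at 12 weeks, of which 21 lay in 1 cell and 2 in another, and 16 UMIs in 5 FBs at 0 weeks. ECs of the same libraries had 0 and 2. The FB level at 12 weeks was 36.7 CPM with that cell and 3.22 CPM without it. Ankrd1 likewise had 6 UMIs in FBs at 12 weeks, all in 1 cell.

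Tnni2, the fast skeletal troponin I, was highest in BCs in each library, with 63 UMIs in 46 cells (22.9 CPM) at 0 weeks, 17 in 10 cells (41.7 CPM) at 2 weeks and 14 in 5 cells (41.5 CPM) at 12 weeks, while ECs had 0, 2 and 0. Both genes were picked after their values were seen.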
